A study of Mus musculus with 15 samples.

Results

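The carboxylesterase 1 (Ces1) family of the mouse was described here in liver RNA of mice with floxed Gata4. Its 8 members, Ces1a to Ces1h, were taken by symbol from the authors' deposited table of genotype results, where each symbol stood on 1 of 24965 rows. All 15 animals were male C57BL/6J mice with both Gata4 alleles floxed. They received an adeno-associated virus of serotype 8 at 8 weeks of age and were killed 7 days later, at 9 weeks. Control animals were given an empty AAV8, and those labelled Gata4LKO a virus with Cre under the Tbg promoter, which works in hepatocytes. Cre and genotype label cannot be told apart. Animals labelled fasted (4 control and 4 Gata4LKO) went without food for 12 h. Those labelled refed (4 control and 3 Gata4LKO) then ate a diet with 69% sucrose and 10% fat for 12 h.

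Carboxylesterases are serine hydrolases of the endoplasmic reticulum that split esters of drugs, of fatty acids and of glycerol. The liver is their main site in the mouse, where human CES1 corresponds to a row of duplicated genes. Ces1d, also called triacylglycerol hydrolase, and Ces1f take part in releasing stored triglyceride for very low density lipoprotein (VLDL). Ces1g is known for effects of its loss on liver and plasma lipids. Ces1e is egasyn, which holds beta-glucuronidase in the endoplasmic reticulum, and Ces1c is the carboxylesterase found in mouse plasma.

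The table holds 1 comparison and no values per liver, so that neither the value in each sample nor the overlap of groups can be given. Each fold change below is the authors' estimate for livers labelled knockout minus control in fasted mice, with the standard error (SE) of the authors' model. The header does not name the groups compared. A fit to genes with a single read gave the deposited estimates within 8.04e-11 under this reading and equally under refed minus fasted in control livers, and the name of the result decided for the first. The meaning of every estimate below rests on that choice: under the other reading the signs and sizes stay, and each value is a difference between refed and fasted control livers that holds no genotype effect. Refed livers entered the model, and were not compared here. Whether livers of a group shared a cage, litter or day of collection is not given in the labels, and such effects cannot be told apart from the group. Each p-value is from a Wald test of an estimate against its SE, which rests on the modelled spread between livers within groups.

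Gata4, the gene to be removed, was not lower under the knockout label. In the authors' deposited table its log2 fold change was 0.31 ± 0.15 (SE), with an adjusted p of 0.361 (Benjamini-Hochberg). Its count covers the gene as a whole and is no check on a deletion of some exons. Hepatocyte markers were abundant: all 10 on the list were tested, with means from 22071 to 1107250 normalized counts and a median log2 fold change of 0.01 in the authors' deposited table. Of these, 1 was called lower, Apoa1, at -0.48 ± 0.11 (SE, log2) in the authors' deposited table. Among all tested genes, 1.60% were called lower. Library size factors, relative to each other, ranged from 0.912 to 1.11.

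The family occupies 360 kb of chromosome 8 (mm10, from 93020214 to 93379725), with every member on the minus strand. The coding sequences run from 1662 to 1701 bases, and 7 members have 14 exons in the main transcript of GENCODE M21 (Ces1c has 13). Ces1b and Ces1c are the closest relatives, with 91.2% identical bases over the coding sequence. The other pairs lay between 74.5% and 82.8%, the highest being Ces1e with Ces1h and, at 81.8%, Ces1d with Ces1g.

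**Figure D1:**
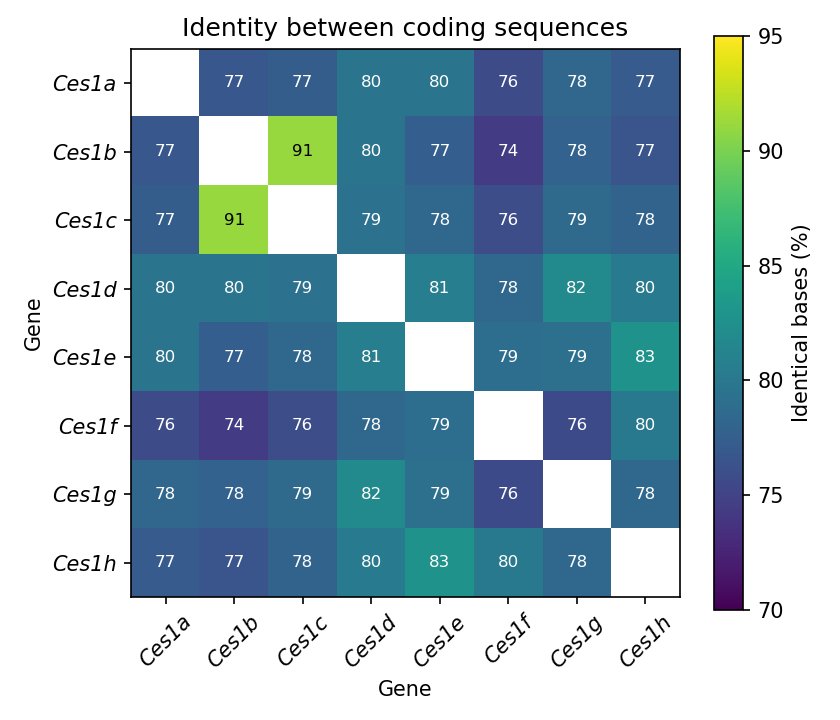
Percentage of identical bases between the coding sequences of the 8 Ces1 genes, for each of 28 pairs aligned end to end (both axes list the genes, and colour gives the percentage). Ces1b and Ces1c stand out at 91.2%, against 74.5% to 82.8% for the other pairs.

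The ends of the coding sequences divide the family by a signal for return to the endoplasmic reticulum. They are shown because the signal bears on where each enzyme is kept. Among the called members, Ces1b and Ces1c, both higher, lack the signal, and Ces1g, which was lower, carries it. Ces1f carries the signal too and was not called. Its estimate of 0.33 in the authors' deposited table is as high as those of Ces1b and Ces1c. Whether the signal bears on the estimates was not tested. Each line gives the last 30 coding bases with the stop codon, 5′ to 3′, from the GENCODE M21 transcripts, and capitals mark the codons of the last 4 residues:
Ces1a: gaagcaaccaagggaGACACTCAGAGAtga
Ces1b: gaccctactgagcacAGAGAACACAAAtga
Ces1c: gaccctactgaacacACAGAACACAAAtga
Ces1d: ccatcccacagggaaCATGTTGAGCTCtga
Ces1e: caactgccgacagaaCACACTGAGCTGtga
Ces1f: caaccccagccatacCACAATGAGCTGtga
Ces1g: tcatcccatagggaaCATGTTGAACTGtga
Ces1h: ccaccacagacaggaCACACTGAGCTAtga

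In 5 members, Ces1d, Ces1e, Ces1f, Ces1g and Ces1h, these codons spell histidine, any residue, glutamate and leucine, the retrieval signal that keeps carboxylesterases in the endoplasmic reticulum. The ends of Ces1a, Ces1b and Ces1c do not. Ces1b and Ces1c end alike, in glutamate, histidine and lysine after an arginine or a threonine.

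The active site also varies. Carboxylesterases carry their catalytic serine inside a short motif, glycine, glutamate, serine, alanine, glycine. It is shown for the 3 genes that were called and for Ces1h, with the serine codon in capitals and 30 bases in all:
Ces1b: accgtctttgggtcaTCAgcaggaggtgtc
Ces1c: accatctttggagagTCAtcagggggtatc
Ces1g: actatcttcggcgagTCAgcaggaggtgaa
Ces1h: accatctttggacagTCAgcaggaggtgaa

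The serine was at residue 221 in Ces1a, Ces1b, Ces1c, Ces1d, Ces1f and Ces1g and at residue 222 in Ces1e and Ces1h. Before it stands glutamate in 6 members, a serine in Ces1b and a glutamine in Ces1h. After it comes alanine in every member but Ces1c, which has a second serine.

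Ces1c was the most abundant member. Per kb of coding sequence, the mean over all 15 livers was 14383 normalized counts for Ces1c, from means in the authors' deposited table. On the same scale, computed from the authors' deposited table, Ces1f stood at 5348, Ces1d at 5180, Ces1b at 3093, Ces1e at 1568 and Ces1g at 513. The remaining members were close to the floor, with 4.69 for Ces1a and 0.154 for Ces1h per kb from the authors' deposited table. Ces1c alone made up 47.8% of the family's level per length, and Ces1g 1.70%. The table gives no spread of these means over livers, and neighbours in this order, such as Ces1f and Ces1d, cannot be said to differ. Before division by length the 8 genes held 50467 normalized counts, or 0.280% of all genes, in the authors' deposited table. Only 84 tested genes had a higher mean than Ces1c in the authors' deposited table.

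**Figure D2:**
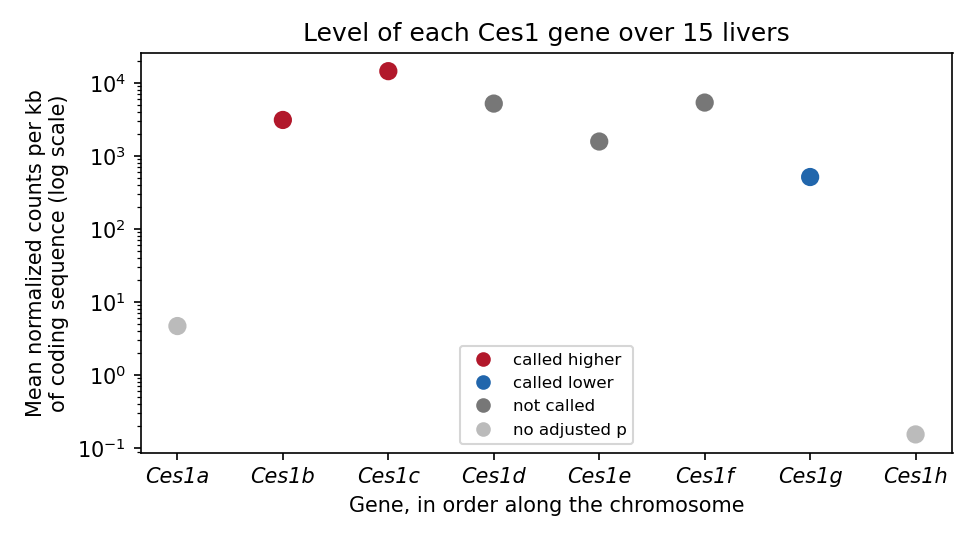
Mean normalized count per kb of coding sequence (vertical log axis) for each Ces1 gene in chromosome order (horizontal axis), as 1 point for the mean over 15 livers, coloured by the call. Ces1c is highest at 14383, Ces1g is at 513, and Ces1a and Ces1h, at 4.69 and 0.154, are far below the rest.

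Members moved in both directions. Ces1b and Ces1c were called higher in livers labelled knockout and Ces1g lower, while Ces1d, Ces1e and Ces1f were tested and not called. That is 3 of 6 tested members, where 2.19% of all 13335 tested genes were called (0.585% higher and 1.60% lower). Tested genes had a median mean of 236 normalized counts, against 5261, 23904 and 869 for Ces1b, Ces1c and Ces1g, from the authors' deposited table. The share called among genes of like mean is not given here. Members were chosen with earlier results of these data known. The median log2 fold change was 0.19 for the 6 tested members and 0.01 for all tested genes in the authors' deposited table. Ces1a and Ces1h had a p and no adjusted p, because the authors' filter on low means ended at 8.20 normalized counts.

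Ces1b (ENSMUSG00000078964, 93056728 to 93080017) stood at a mean of 5261 normalized counts, with a log2 fold change of 0.34 ± 0.07 (SE), from the authors' deposited table, with an adjusted p of 0.000963. This is a rise of 26.2%, and the 95% interval on the log2 scale ran from 0.19 to 0.48, from the authors' deposited table. Ces1c (ENSMUSG00000057400, 93099015 to 93131283), the plasma esterase, had an estimate of 0.32 ± 0.08 (SE, log2) in the authors' deposited table, with an adjusted p of 0.00684. Its rise came to 25.1%, with a log2 interval from 0.16 to 0.48, from the authors' deposited table. Ces1f, whose coding sequence has the lowest identity with Ces1b of all pairs, at 74.5%, had an estimate of 0.33 in the authors' deposited table. It was not called. Whether likeness of sequence bears on the estimates was not tested.

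Some reads cannot tell these relatives apart. Of the 50-base words in the Ces1b transcript, 9.92% also occur in a Ces1c transcript, and 10.7% of the words of Ces1c occur in Ces1b. Counting every other gene, 11.6% of the words of Ces1b and 17.0% of those of Ces1c were shared. At 100 bases, 1.29% of the words of Ces1b and 1.39% of those of Ces1c were found in another gene. The sources used here do not give the read length or the handling of reads with several matches, and the share of each value that came from the other gene was not tested. For Ces1a, Ces1d, Ces1e, Ces1f, Ces1g and Ces1h, between 0.104% and 3.21% of the 50-base words occurred in another gene, and 0% of the 100-base words.

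Ces1g (ENSMUSG00000057074, 93302369 to 93337308) was called lower, with a larger estimate. Its mean was 869 normalized counts and its log2 fold change -1.55 ± 0.35 (SE, log2) in the authors' deposited table, with an adjusted p of 0.00156. The level under the knockout label was 0.341 of the control level, with a 95% interval from 0.211 to 0.552, from the authors' deposited table. Among 3462 tested genes with a mean within 2-fold of that of Ces1g, 0.173% had a larger change in either direction. Its error was large too: 98.6% of those genes had a smaller SE, and their median SE was 0.09 in the authors' deposited table. Which livers make up this spread cannot be read from the table.

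The 3 members that were tested and not called differ in what the table leaves room for. Ces1f (ENSMUSG00000031725, 93256236 to 93279747) had an estimate of 0.33 ± 0.11 (SE, log2) in the authors' deposited table, with an adjusted p of 0.0656. Its estimate, 26.0% with an interval from 9.10% to 45.4% in the authors' deposited table, was as large as those of Ces1b and Ces1c, and its SE was larger. Ces1d (ENSMUSG00000056973, 93166068 to 93197838) had an estimate of 0.06 ± 0.17 (SE, log2) in the authors' deposited table, with an adjusted p of 0.959. The interval of Ces1d, from -0.28 to 0.39 in the authors' deposited table, includes the estimates of Ces1b, Ces1c and zero, but not that of Ces1g. Ces1e (ENSMUSG00000061959, 93201218 to 93229619), the egasyn gene, had an estimate of -0.12 ± 0.14 (SE, log2) in the authors' deposited table, with an adjusted p of 0.844 and an interval from -0.39 to 0.14. The upper bound of Ces1e lies below the estimates of Ces1b, Ces1c and Ces1f. Differences between members were not tested, since that needs values per liver.

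**Figure D3:**
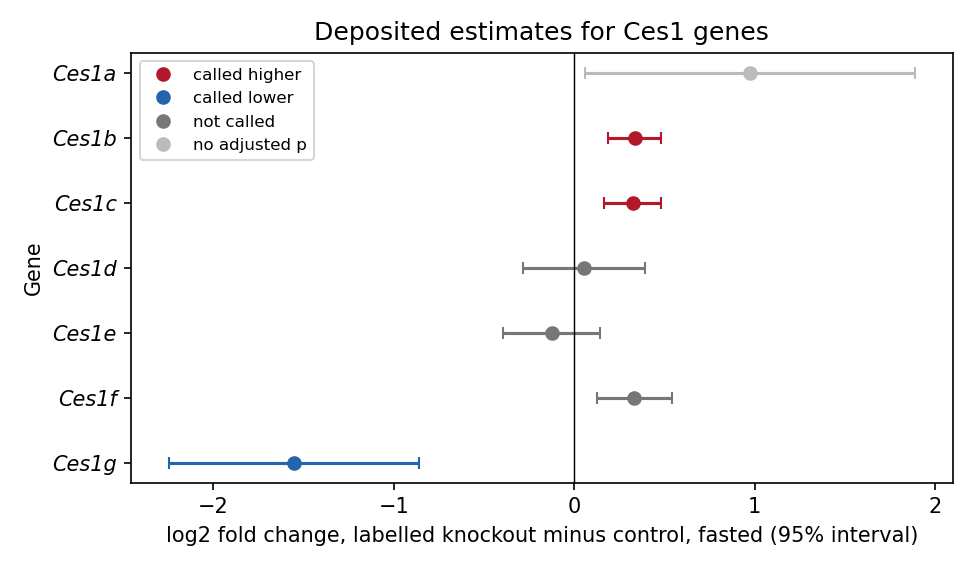
Deposited log2 fold change (horizontal axis, livers labelled knockout minus control, fasted) for 7 Ces1 genes (vertical axis), as points with 95% intervals, coloured by the call. Ces1b, Ces1c and Ces1f lie together between 0.32 and 0.34, Ces1g lies at -1.55, and Ces1h is left out because its interval runs from -6.92 to 9.41.

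Ces1a and Ces1h were hardly measured. Ces1a (ENSMUSG00000071047, 93020214 to 93048192) had a mean of 7.92 normalized counts, just under the authors' filter, and a log2 fold change of 0.97 ± 0.47 (SE), from the authors' deposited table. Its unadjusted p was 0.0372, and 0.672 after a Benjamini-Hochberg adjustment over every gene that has one. Ces1h (ENSMUSG00000074156, 93351843 to 93379725) had 3.90 normalized counts summed over all 15 livers, and a log2 fold change of 1.24 ± 4.17 (SE), from the authors' deposited table. At this depth no change of Ces1h was detectable.

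**Figure D4:**
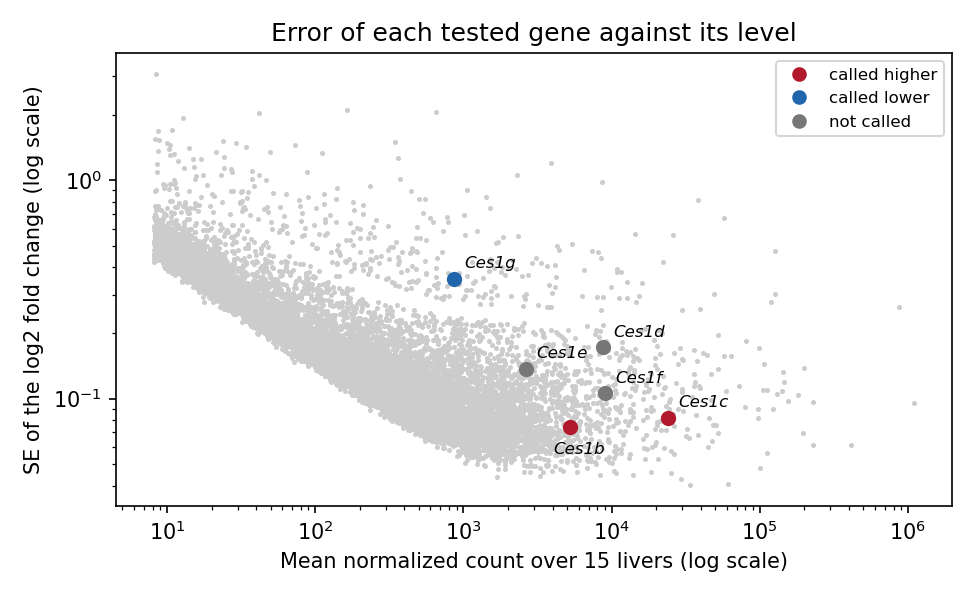
Standard error of the log2 fold change (vertical log axis) against the mean normalized count over 15 livers (horizontal log axis) for 13335 tested genes (grey points) and the 6 tested Ces1 genes (large points, coloured by the call). Ces1g, with an SE of 0.35, lies above most genes of like level, while Ces1b and Ces1c, at 0.07 and 0.08, lie among them.

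All 3 calls were lost under the strictest settings. With a Holm adjustment the adjusted p was 0.0861 for Ces1b, 0.994 for Ces1c and 0.157 for Ces1g. Tested against a change of at least 0.25 on the log2 scale, the Benjamini-Hochberg adjusted p was 1 for Ces1b and Ces1c and 0.0621 for Ces1g.

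Ces1b and Ces1c are also alike in their promoters. RefSeq (GRCm38.p6) gave windows of 250 bases before to 50 after the start for 6 of the 8 members, Ces1a, Ces1b, Ces1c, Ces1e, Ces1g and Ces1h, and 2 such windows for Ces1b. Between the Ces1c window and the Ces1b window that starts at 93079891, 93.4% of 273 aligned bases were identical. With the other Ces1b window, which starts at 93079968, it was 93.3% of 209 aligned bases. Other members' windows had at most 71.1% identical bases with each other or with these. Of the 2 Ces1b windows, the one aligned over more bases is shown. Its RefSeq start lies 77 bases downstream of the GENCODE start. This sequence and that of Ces1c are shown because both genes were called higher. Each gives 250 bases before and 30 after the RefSeq start on the minus strand, at chr8:93079911-93080190 for Ces1b and chr8:93131254-93131533 for Ces1c, and capitals mark the longest identical run, of 58 bases:
Ces1b: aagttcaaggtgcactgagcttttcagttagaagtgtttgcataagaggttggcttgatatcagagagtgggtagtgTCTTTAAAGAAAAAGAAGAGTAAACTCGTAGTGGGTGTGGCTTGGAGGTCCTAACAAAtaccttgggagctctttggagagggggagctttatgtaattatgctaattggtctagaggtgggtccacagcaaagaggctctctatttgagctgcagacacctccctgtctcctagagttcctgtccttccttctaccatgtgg
Ces1c: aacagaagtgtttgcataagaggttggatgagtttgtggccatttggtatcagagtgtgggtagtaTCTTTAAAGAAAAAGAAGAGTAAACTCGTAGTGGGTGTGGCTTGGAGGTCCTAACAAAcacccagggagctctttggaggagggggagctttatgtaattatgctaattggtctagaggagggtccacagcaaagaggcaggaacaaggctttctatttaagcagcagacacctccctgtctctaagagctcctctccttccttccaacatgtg

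The same stretch of Ces1g, at chr8:93337180-93337459 on the minus strand, is shown because this gene was called lower. Capitals mark the words AGATAA or TGATAA on either strand, core letters of sites that GATA factors bind:
Ces1g: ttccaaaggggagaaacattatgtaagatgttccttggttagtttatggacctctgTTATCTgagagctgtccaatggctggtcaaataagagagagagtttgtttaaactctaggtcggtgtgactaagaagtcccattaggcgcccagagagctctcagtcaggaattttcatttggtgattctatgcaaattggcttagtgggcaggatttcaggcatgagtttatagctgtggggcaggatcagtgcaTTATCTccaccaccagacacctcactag

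Ces1g held 2 such words, 1 starting 194 bases before and 1 starting 2 bases after the RefSeq start. GENCODE places the start of Ces1g 99 bases further upstream, and that of Ces1h further downstream than RefSeq does. Ces1e held 1 word, 15 bases before its start, and Ces1h 1, at 247 bases. No such word was found in these windows of Ces1a, Ces1b or Ces1c. Of 32851 RefSeq windows of the same length, 18.6% held at least 1. Other spellings, such as the TGATAG in the Ces1a window, were not searched for. A match of letters is a description and not a measured binding site. Ces1e, which holds a word close to its start, was not called, with a log2 interval from -0.39 to 0.14 in the authors' deposited table. Ces1d and Ces1f had no window. Whether these words bear on any estimate was not tested.

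Order along the chromosome did not follow direction in a simple way. Ces1b and Ces1c are next to each other, and Ces1g lies between Ces1f, with an estimate of 0.33 in the authors' deposited table, and Ces1h. The gap from Ces1f to Ces1g is 22621 bases. Within 300 kb of the outermost members, 7 of 17 other annotated genes were in the table and 5 were tested. By DESeq2's Wald test, as the authors ran it, 0 of those 5 were called, and 2 had an unadjusted p under 0.05. Both lie inside the cluster. The pseudogene Gm45910, between Ces1c and Ces1d, had an estimate of 0.64 ± 0.28 (SE, log2) in the authors' deposited table, with an adjusted p of 0.311. Gm45910 shares 3.99% of the 50-base words of Ces1c. Gm45909, which lies inside Ces1d on the same strand, had an estimate of -0.64 ± 0.26 (SE, log2) in the authors' deposited table, with an adjusted p of 0.243. A further pseudogene, Gm45727, between Ces1e and Ces1f, stood at -0.01 ± 0.41 (SE, log2) in the authors' deposited table, with an adjusted p of 0.997. Outside the cluster, the matrix protease gene Mmp2 and the lysophospholipid acyltransferase gene Lpcat2 stood at -0.07 ± 0.31 and 0.49 ± 0.39 (SE, log2) in the authors' deposited table.

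**Figure D5:**
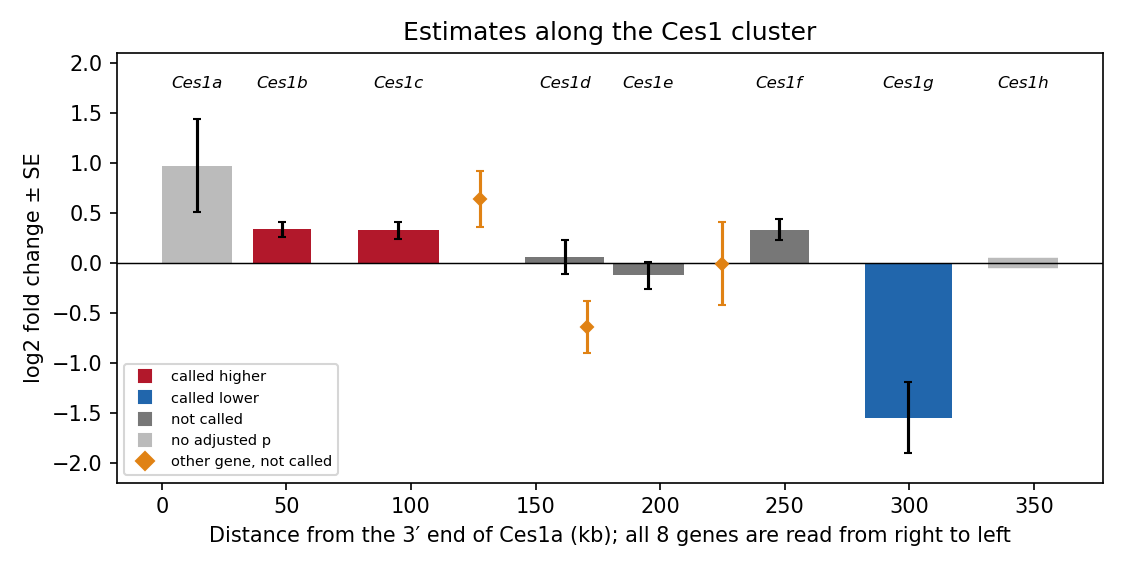
Deposited log2 fold change with its SE (vertical axis) along the Ces1 cluster (horizontal axis, kb from the 3′ end of Ces1a), where each bar spans a Ces1 gene and diamonds are the 3 other tested genes inside the cluster. Ces1b and Ces1c, side by side, are higher at 0.34 and 0.32, Ces1g is lower at -1.55, and Ces1h, whose SE is 4.17, is drawn as a thin bar at zero for its position only.

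Carboxylesterases outside the family were called lower or not called. Among 8 tested genes, of 10 that the table lists, 0 were called higher and 2 lower, where 0.585% and 1.60% of all tested genes were. The median log2 fold change was -0.23 for these 8 and 0.01 for all tested genes in the authors' deposited table. The called genes were Ces2g, at -1.34 ± 0.14, and Ces3b, at -1.09 ± 0.13 (SE, log2) in the authors' deposited table. Ces2h, at -1.54 ± 0.51 (SE), and Ces2c, at -0.41 ± 0.19 (SE), did not pass in the authors' deposited table, with adjusted p of 0.0915 and 0.343. Ces3a, another abundant carboxylesterase, had an estimate of -0.04 ± 0.10 (SE, log2) in the authors' deposited table. Whether the Ces1 family differs from these genes was not tested.

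In the lists of lipid hydrolysis and VLDL assembly 1 gene was called, a share near the 2.19% of all tested genes. Among 18 tested genes of neutral lipid hydrolysis, 1 was called lower and 0 higher, with a median of -0.11 in the authors' deposited table. It was Aadac, an esterase of the endoplasmic reticulum that also acts on drugs and triglyceride, at -0.38 ± 0.05 (SE, log2) in the authors' deposited table, with an adjusted p of 2.73e-13. Lipc (hepatic lipase), Lipg (endothelial lipase) and Abhd12 (a lysophospholipid lipase) did not pass, at -0.19 ± 0.09, -0.88 ± 0.38 and -0.20 ± 0.08 (SE, log2) in the authors' deposited table. The authors' DESeq2 Wald test called 0 of 17 tested genes of VLDL assembly, and 3 had an unadjusted p under 0.05. These were Apob, the structural protein of VLDL, at 0.16 ± 0.07, Mttp, which loads it with lipid, at -0.23 ± 0.11, and Tmem41b, a lipid scramblase, at -0.32 ± 0.11 (SE, log2) in the authors' deposited table.

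Among 13 tested genes of other ester and epoxide hydrolases, 1 was called higher, where 0.585% of all tested genes were. Again Aadac alone was called lower, where the share of all tested genes was 1.60%. The higher one was Ephx1, the microsomal epoxide hydrolase, at 0.57 ± 0.13 (SE, log2) in the authors' deposited table, with an adjusted p of 0.00191. Esd, Pon2 and Cmbl did not pass, at 0.20 ± 0.06, 0.16 ± 0.07 and -0.21 ± 0.09 (SE, log2) in the authors' deposited table. For retrieval to the endoplasmic reticulum and its chaperones, the authors' DESeq2 Wald test called 0 of 8 tested genes, and 0 had an unadjusted p under 0.05. The receptors of the retrieval signal, Kdelr1 and Kdelr2, stood at -0.05 ± 0.06 and -0.10 ± 0.09, and the disulfide isomerase gene Pdia6 at 0.14 ± 0.11 (SE, log2) in the authors' deposited table.

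Transcription factors listed as possible regulators of Ces1 genes were called in 2 of 25 tested cases, both lower, where 1.60% of all tested genes were called lower. They were the sterol and lipogenic regulators Srebf1 and Srebf2, at -0.72 ± 0.21 and -0.46 ± 0.12 (SE, log2) in the authors' deposited table, with adjusted p of 0.0285 and 0.00685. Cebpa, Ahr and Gata4 had the smallest p among the others, with estimates of -0.23 ± 0.12, 0.24 ± 0.13 and 0.31 ± 0.15 (SE, log2) in the authors' deposited table. The list's median was 0.05 in the authors' deposited table.

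Markers of other cells bear on Ces1d and Ces1f, which fat cells also express. Of 7 adipocyte markers 3 were tested and 1, Cfd, was called higher, where 0.585% of all tested genes were. Cfd stood at 3.20 ± 0.96 (SE, log2) on a mean of 9.36 normalized counts in the authors' deposited table. Fabp4 and Cidec did not pass, at 0.67 ± 0.29 and 0.24 ± 0.57 (SE, log2) in the authors' deposited table. The defining markers Adipoq, Plin1 and Lep were near the floor, with means of 2.43, 0.588 and 0.131 normalized counts in the authors' deposited table. The whole list summed to 213 in the authors' deposited table, with 120 from Cidec and 80.5 from Fabp4. Ces1d had a mean of 8780 and Ces1f of 9001 in the authors' deposited table. Counts of unlike genes do not give the share of fat cells. Levels of these markers per group are not in the table. Among 10 tested markers each of Kupffer, sinusoidal endothelial and stellate cells and 4 of cholangiocytes, the authors' DESeq2 Wald test called 0, with 1, 4, 0 and 0 at an unadjusted p under 0.05. Their medians were -0.25, 0.21, 0.14 and 0.05 in the authors' deposited table, with 10, 3, 2 and 2 negative estimates. The part of these cells, or of fat cells, in the Ces1 values was not tested. The share of all tested genes at an unadjusted p under 0.05 is not given here.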

How the data were processed

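Liver RNA of 15 mice in 4 groups was sequenced. Per the labels' protocols, TRIzol and RNeasy were used for RNA and a KAPA Stranded kit for libraries. The submitters' processing notes name STAR 2.6.0c, FastQC, mm10 and DESeq2, and the deposited columns carry DESeq2's names. Counting tool, strand setting and annotation were not named in the sources used here. The deposited table holds, per the file headers, a mean signal (counts divided by size factors and averaged by the authors), a log2 fold change with its SE, a Wald score, and deposited p-values, raw and adjusted. The deposited score equals the fold change over its SE, and the deposited adjusted p a Benjamini-Hochberg adjustment over 13335 genes; both were checked. Only 1 deposited comparison was analysed, and it was not refitted.

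Which groups it compares was worked out from 166 genes with 1 read in 1 library, whose means give the size factors. A penalised negative binomial fit was written for 9 readings. Fasted Gata4LKO minus fasted control, and refed minus fasted control, both in an interaction model of all libraries, gave the deposited estimates within 8.04e-11; their reverses differed by 4.37e-05, and the other 5 readings differed in SE by at least 0.337.

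Calls are at 0.05 on the adjusted p of the authors' DESeq2 Wald test over all genes. Intervals are 1.96 SE at 95%. Of the table's IDs, 99.9% were found in GENCODE M21 (GRCm38, the same build as mm10), which gave coordinates, transcripts and coding lengths; coding lengths were planned from RefSeq proteins and taken from GENCODE instead. Shared words are exact matches of 50 or 100 bases between a member's main transcript and any transcript of another gene, on the transcribed strand. Identity is over aligned bases of end-to-end alignments. Promoters are from RefSeq, and 6 of 8 members matched. Adjustments were tested on simulated data. Members and gene lists were chosen with earlier results of these data known. Named genes were the 8 members, Gata4, tested neighbours within 300 kb, and in each list every called gene and up to 3 others of smallest p; the marker lists other than adipocyte are given as counts with their called gene, and Adipoq, Plin1 and Lep were added as defining markers. With 1 comparison, likeness of pattern between genes could not be measured. Computation used Python 3.11.15, pandas 2.3.3 and SciPy 1.17.1.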

Additional observations from a re-analysis of the deposited data

How the results depend on the processing

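No paired analysis was possible because only summaries over livers were analysed, and for the same reason no liver could be left out. Ces1b, Ces1c and Ces1g stayed called when p-values were adjusted over all genes that have one, over those with means from 10 or from 100 up, or over protein coding genes alone, and at a threshold of 0.1, where Ces1f, at 0.0656, was called too. With the Holm adjustment, 0 Ces1 genes were called higher and 0 lower, as were 0 hydrolase genes higher and 0 regulator genes lower. Tested against a change of at least 0.25, 0 Ces1 genes were called in either direction, 0 of lipid hydrolysis lower, 0 hydrolase genes higher or lower, and 0 regulators lower. Called regulators numbered 1 when all genes with a p were adjusted, and called higher hydrolases 2 with a mean of at least 100 and 2 at a threshold of 0.1. Subtracting the median of 500 genes of nearest mean moved no fold change of the 6 tested Ces1 genes by more than its SE. The same 3 promoter windows held a GATA word without the bases after the start. Depth limits Ces1a and Ces1h.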
